A study of Homo sapiens with 24 samples.

Results

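The transcriptional response of HEK293 cells to hydrogen peroxide (H2O2) was examined in cells that carried an empty plasmid. HEK293 is an established human embryonic kidney cell line. The comparison used 6 of the 24 samples of the study, chosen by their labels alone: 3 samples of cells transfected with empty vector and treated with H2O2 at 150 μM, and 3 samples of the same transfection left untreated, both collected at 8 h. The plasmid was pCMV-flag without an insert, introduced by transient transfection, so a sample can hold cells that did not take up the plasmid. The other groups of the study were untransfected cells and cells transfected with EVI1-WT or EVI1-AQA, untreated or with H2O2, again with 3 samples each. The labels give each sample a batch, 1 to 3, and each batch holds 1 sample of every group, so that untreated and H2O2 samples were paired by batch. Nothing in the labels says that the batches were separate cultures, and p-values measure the spread between these samples, which may be technical.

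H2O2 crosses membranes and oxidises thiols, iron-sulphur clusters and DNA. Cells clear it with catalase, peroxiredoxins and glutathione peroxidases, and they answer a sublethal dose with stress kinase signalling, immediate early genes, the NRF2 antioxidant programme and, where DNA is broken, the checkpoint kinases and p53. HEK293 cells carry adenoviral proteins that bind p53, which limits them as a model of the p53 response. The study exposed the cells to H2O2 to elicit this stress in the presence and absence of the transcription factor EVI1, and the empty vector cells are the transfected cells without EVI1.

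The measurements were log2 expression values of 11579 transcripts from sequencing the 3′ ends of polyadenylated RNA. Within each batch the values of every transcript had been centred, so that the mean over the 8 samples of a batch was 0, with a largest departure of 4.5e-06. A value of 0.5 therefore means 0.5 log2 units above the mean of that transcript in that batch, there is no absolute level, and levels of different genes cannot be ranked. The difference between an H2O2 sample and the untreated sample of the same batch is unaffected by this centring. The depth of the libraries is unknown, so no counting error or detection limit can be given.

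A pair of limits bear on every value that follows. The row labels were checked against GENCODE v44: on chromosome 1, 50.7% of 2061 protein-coding genes and 2.39% of 3598 other genes carried a row, whereas on chromosomes 2 to 22 the shares were 19.3% of 17050 and 16.4% of 36869. Labels beyond chromosome 1 thus fell on protein-coding and other genes at similar rates, and genes are named here from the 1131 rows of chromosome 1 only. The row labelled CACNB3, used here only as a mark of the libraries, separated cells with and without an EVI1 plasmid: it lay between -1.64 and -4.49 in the untransfected samples and between 2.62 and 4.14 in the untreated EVI1 samples. In cells with the empty vector it was -2.18, -4.10 and -3.47 in untreated batches 1, 2 and 3, and -3.48, 4.36 and -2.17 in the same batches with H2O2. The H2O2 sample of batch 2 thus stood apart from the other 5 empty vector samples in this row. In batch 2 the H2O2 sample of EVI1-WT lay at -4.38, and in batch 1 that of EVI1-AQA at -2.60, both unlike the other samples of their groups. All libraries were kept under their labels, and values by batch and counts without batch 2 are given with the main results.

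With H2O2, 41 of 11579 transcripts (0.354%) changed in these cells at a Benjamini-Hochberg adjusted p under 0.05 by limma. Of these, 26 (0.225%) rose and 15 (0.13%) fell. At an unadjusted p under 0.05 by limma, applied to all rows, 1686 transcripts (14.6%) passed, with 905 (7.82%) higher and 781 (6.74%) lower. The study used this threshold between groups only among transcripts that its analysis of variance over all groups had already selected. On chromosome 1 the corresponding counts were 4 of 1131 rows (0.354%) at the adjusted threshold, 3 (0.265%) up and 1 (0.0884%) down, and 187 rows (16.5%) at the unadjusted threshold, 105 (9.28%) higher and 82 (7.25%) lower. Over all rows, leaving out batch 2 gave 0 risen and 0 fallen at the adjusted threshold, and so did leaving out batch 1. At the unadjusted threshold, 582 of all rows were higher and 450 lower without batch 2. Untreated and H2O2 samples did not overlap in 280 of the 1131 rows (24.8%), against 2836 (24.5%) of all rows. The difference had the same sign in all 3 batches in 484 rows of chromosome 1, of which 259 were higher and 225 lower. An exact permutation test on a single gene cannot give a two-sided p below 0.1 with 3 against 3 samples, or below 0.25 with 3 pairs, and the p-values here come from limma, which pools the spread over all 24 samples and shares information across rows.

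The 4 called genes of chromosome 1 were KTI12, DDX20, UHMK1 and RABGAP1L. KTI12 encodes a partner of the Elongator complex, which modifies the wobble position of transfer RNAs. In untreated empty vector samples KTI12 was -0.44, -0.60 and -0.43 in batches 1, 2 and 3, and with H2O2 it was 0.31, 0.42 and 0.058. All 3 H2O2 samples lay above all untreated samples, and the H2O2 sample of batch 3 was the lowest of them. KTI12 rose by 0.75 ± 0.15 (SE, n = 3) on the log2 scale, 1.68-fold, with a limma adjusted p of 0.0460. The gene lies at chr1:52032103-52033810 on the minus strand of GRCh38, inside the span of TXNDC12 on the same strand, whose own row differed by 0.02 between the groups.

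DDX20 encodes a DEAD-box helicase of the SMN complex, which assembles the small nuclear ribonucleoproteins of the spliceosome. Its values were -0.26, -0.28 and -0.58 in untreated batches 1, 2 and 3 and 0.29, 0.29 and 0.33 with H2O2. The H2O2 samples were closely grouped and did not overlap with the untreated samples. DDX20 rose by 0.68 ± 0.14 (SE, n = 3), 1.60-fold, with a limma adjusted p of 0.0475. The gene spans chr1:111754832-111775602 on the plus strand and overlaps INKA2 and KCND3 on the opposite strand.

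UHMK1 encodes a kinase that carries a U2AF homology motif and phosphorylates the splicing factor SF1. It was -0.80, -0.96 and -0.083 in untreated batches 1, 2 and 3 and 0.34, 0.54 and 0.050 with H2O2. The groups did not overlap, but batches 1 and 2 carried most of the difference, and the pair of batch 3 differed by only 0.13. UHMK1 rose by 0.92 ± 0.20 (SE, n = 3), 1.90-fold, with a limma adjusted p of 0.0475.

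RABGAP1L encodes a GTPase-activating protein for Rab GTPases, the switches of vesicle traffic. Its untreated values were 0.37, 0.096 and 0.31 in batches 1, 2 and 3, and its values with H2O2 were -0.38, -0.54 and -0.59. The groups were separate, and the 3 pairs differed by -0.74, -0.64 and -0.90. RABGAP1L fell by 0.76 on the log2 scale (SE 0.16, n = 3), to a level 1.70-fold below untreated cells, with a limma adjusted p of 0.0475. It is a long gene, at chr1:174159410-174995308 on the plus strand, a span of 836 kb.

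None of the 4 kept an adjusted p under 0.05 in limma when the pair of batch 1 or that of batch 2 was left out. Without batch 2, KTI12 stood at 0.62, DDX20 at 0.73, UHMK1 at 0.64 and RABGAP1L at -0.83 on the log2 scale, with unadjusted p-values from 0.000798 to 0.0114. Without batch 3, the call on UHMK1 held, with an adjusted p of 0.00491. In each of the 4 genes all 3 pairs differed in 1 direction, so leaving out a batch could not change the direction. The adjusted calls did not hold without batch 2.

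**Figure D1:**
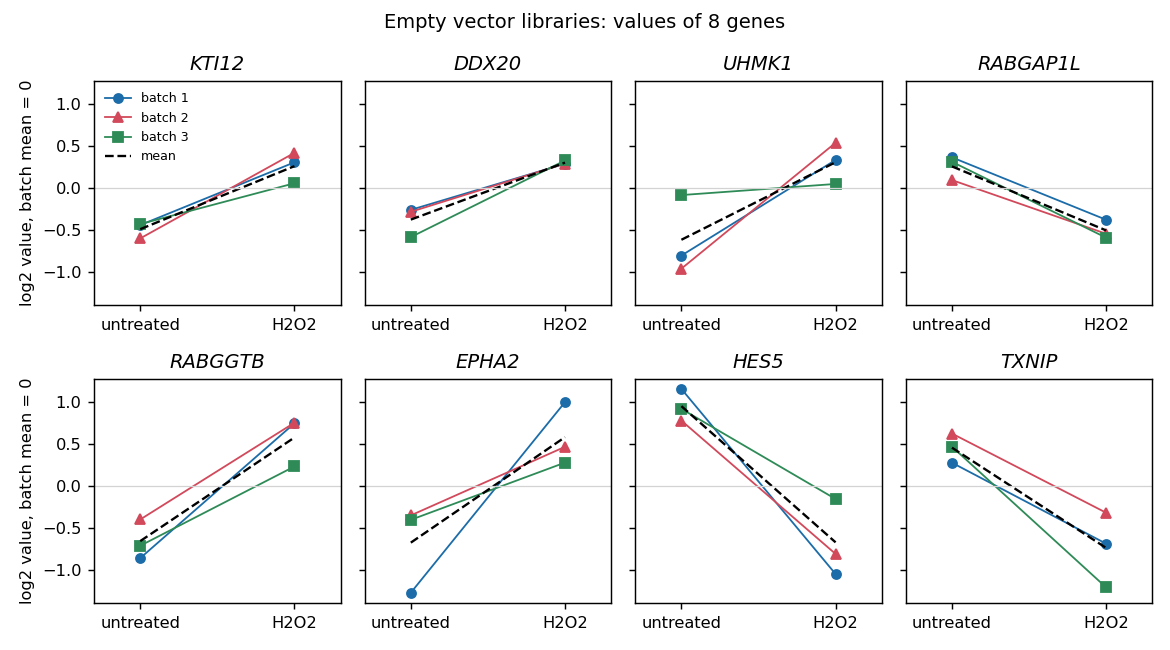
Log2 values (y axis, batch mean 0) of 8 genes in the untreated and H2O2 empty vector samples (x axis), with 1 coloured line per batch and the mean dashed. In each of the 8 genes the 3 lines run in 1 direction, and the line of batch 3 is the flattest for KTI12, UHMK1, RABGGTB, EPHA2 and HES5.

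A further 9 protein-coding genes completed the 12 with the lowest p among those higher in all 3 batches, with limma adjusted p-values between 0.0507 and 0.0681, just outside the threshold. RABGGTB, the catalytic beta subunit of the enzyme that attaches geranylgeranyl groups to Rab proteins, had the largest difference of the 12, 1.24 ± 0.27 (SE, n = 3). It lay at -0.86, -0.40 and -0.71 in untreated batches 1, 2 and 3 and at 0.75, 0.75 and 0.23 with H2O2. Its span overlaps ACADM on the same strand. RRAGC, a Rag GTPase that brings mTORC1 to the lysosome when amino acids are present, was higher by 0.77, and YRDC, which acts in the threonylcarbamoyl modification of transfer RNA, by 0.78. SNRNP40, a component of the U5 small nuclear ribonucleoprotein, lay at -0.43, -0.45 and -0.21 in untreated batches 1, 2 and 3 and within 0.22 and 0.24 with H2O2, a difference of 0.59 ± 0.14. DEGS1, the desaturase of the last step of ceramide synthesis, differed by 0.53, with batch values of 0.53, 0.48 and 0.57. YOD1, a deubiquitinase that takes part in the clearance of misfolded proteins, differed by 0.87, TOR3A, of the torsin family of ATPases, by 0.60, BSDC1 by 0.73 and KIAA1522 by 0.97. The untreated and H2O2 samples did not overlap in these 12 genes, as in 24.8% of all chromosome 1 rows, and the choice by p and direction favours such genes. Of the 12, 9 had their smallest difference in batch 3, as the plot of batch differences shows, whereas DDX20, TOR3A and DEGS1 had their largest there.

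The 12 lowest by p among the protein-coding genes lower in all 3 batches were led by RABGAP1L. ROR1, a receptor tyrosine kinase-like protein that binds Wnt5a, lay at 0.35, 0.42 and 0.38 in untreated batches 1, 2 and 3 and at -0.28, -0.50 and -0.58 with H2O2. It was lower in each pair, and the difference was -0.84 ± 0.18 (SE, n = 3, limma adjusted p = 0.0507). RGS16, an inhibitor of G protein signalling, differed by -0.89 ± 0.21 (adjusted p = 0.0561). HES5, a repressor induced by Notch, showed the largest difference of the 12: it lay at 1.16, 0.78 and 0.92 in untreated batches 1, 2 and 3 and at -1.05, -0.81 and -0.16 with H2O2. The difference of HES5 was -1.62 ± 0.39, or 3.08-fold, with a limma adjusted p of 0.0594. WNT2B, a Wnt ligand, differed by -1.29, and its H2O2 value of -1.72 in batch 2 was far below the -0.14 and -0.70 of batches 1 and 3, so that without batch 2 the difference was -0.75 (unadjusted p = 0.0596). PTPRF, a receptor tyrosine phosphatase, differed by -0.62 and, without batch 2, by -0.39. SIPA1L2, a GTPase-activating protein for Rap, and CDC42BPA, a kinase downstream of Cdc42, differed by -0.58 and -0.64. The other 4 were ST6GALNAC3, a sialyltransferase, at -1.20, PIGK, of the transamidase that attaches glycosylphosphatidylinositol anchors, at -0.51, CREB3L4, a membrane-bound transcription factor of the endoplasmic reticulum, at -0.91, and RNPEP, an aminopeptidase, at -0.44. Their adjusted p-values lay between 0.0797 and 0.123. As in the genes that were higher, the choice favours samples that do not overlap, and none of the 12 overlapped (24.8% of all chromosome 1 rows did not).

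**Figure D2:**
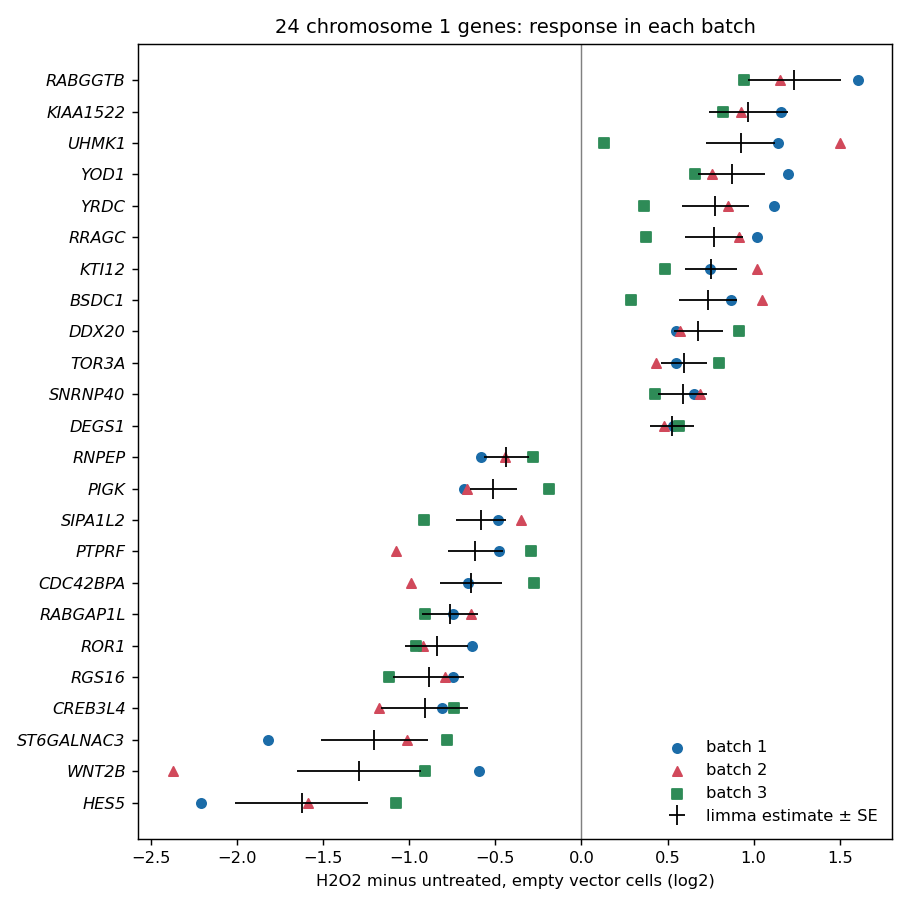
Differences between H2O2 and untreated empty vector samples (x axis, log2) for the 24 named chromosome 1 genes (y axis), with 1 symbol per batch and the limma estimate with its SE in black. By the rule that chose the genes, all batch values lie on the side of 0 of their gene's estimate, and the spread over batches is widest for WNT2B and UHMK1.

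Of the 19 gene lists examined, that of splicing factors and RNA helicases had the closest medians in the 3 batches. It had 41 of its 43 chromosome 1 genes in the table, and 10 of them were higher at an unadjusted p under 0.05 and 0 lower, where 9.28% and 7.25% of all chromosome 1 rows passed. Its median difference was 0.199, with medians of 0.204, 0.189 and 0.196 in batches 1, 2 and 3, against 0.0134 over all chromosome 1 rows, and 34 of the 41 values were above 0. Beside DDX20 and SNRNP40, the genes that passed included ILF2 at 0.39, MAGOH, a core protein of the exon junction complex, at 0.48, and ZC3H11A, an RNA export factor, at 0.54. MAGOH lay at -0.37, -0.35 and -0.29 in untreated batches 1, 2 and 3 and at 0.027, 0.15 and 0.24 with H2O2, and its pairs differed by similar amounts. RBM34 differed by 0.86, and its pairs by 0.067, 1.25 and 1.27, so that batch 1 did not share the difference. HNRNPR at 0.32, PRPF38B at 0.39 and PRPF3 at 0.36 also passed. SFPQ at -0.22 and HNRNPU at -0.15 were the lowest of the list and did not pass. Without batch 2, 5 members were higher and 0 lower at an unadjusted p under 0.05, with a median of 0.219.

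Among 19 genes of DNA replication and repair with a row, 5 were higher and 1 was lower at an unadjusted p under 0.05, with a median of 0.129, where 9.28% of all chromosome 1 rows were higher and 7.25% lower. Leaving out batch 1 gave 2 and 0, and leaving out batch 2 gave 3 and 0. DCLRE1B, the Apollo nuclease that protects telomeres and takes part in crosslink repair, differed by 0.49 ± 0.14 and by 0.45, 0.46 and 0.55 in batches 1, 2 and 3. EXO1, the exonuclease of mismatch repair and end resection, differed by 0.53, ORC1, of the origin recognition complex, by 0.42, and DTL, the substrate receptor of a ubiquitin ligase active in S phase, by 0.45. SDE2, which acts at stalled replication forks, differed by 0.46, and CHD1L, a remodeler recruited by poly(ADP-ribose), by -0.36. PARP1, the main polymerase of poly(ADP-ribose), stood at -0.09 and did not pass. In the p53 list, 3 of 16 genes (18.8%) were higher and 1 (6.25%) was lower, against 9.28% and 7.25% of all chromosome 1 rows. Leaving out batch 1 gave 1 and 0, and leaving out batch 2 gave 2 and 1. EPHA2, a receptor tyrosine kinase, lay at -1.27, -0.35 and -0.41 in untreated batches 1, 2 and 3 and at 1.00, 0.47 and 0.28 with H2O2. The pair of batch 1 differed most, and the overall difference was 1.26 ± 0.37 (limma unadjusted p = 0.00288). CASP9, the initiator caspase of the mitochondrial pathway, differed by 0.87 and by 0.13, 1.34 and 1.15 in the 3 batches. E2F2 differed by 0.55, and FAF1, which binds the death receptor Fas, by -0.52. FAF1 is also counted in the list of proteasome and ubiquitin genes.

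Immediate early and acute stress genes showed no common direction. Of 15 with a row, 2 were higher and 2 lower at an unadjusted p under 0.05, also without batch 2 (1 and 2 without batch 1, 3 and 1 without batch 3; over all chromosome 1 rows 9.28% and 7.25%), and the list median was -0.080, with batch medians of 0.266, 0.143 and -0.094. CYR61, a matricellular protein induced by serum and stress, lay at -0.47, -0.55 and -0.24 in untreated batches 1, 2 and 3 and at 0.35, 0.44 and -0.048 with H2O2, a difference of 0.67 ± 0.18. MCL1, a short-lived anti-apoptotic member of the BCL2 family, differed by 0.42 ± 0.13. Of the 2 lower genes 1 was TXNIP, at -1.20, which is also counted in the thiol list below. Lists can share members. GADD45A, a stress and DNA damage gene, was 0.80 ± 0.48 higher (unadjusted p = 0.113), and ATF3, a transcription factor induced by many stresses, 0.55 ± 0.34 higher (unadjusted p = 0.118). The pairs of GADD45A differed in 1 direction but by very unequal amounts, and those of ATF3 and JUN differed in sign between batches. JUN lay at -0.17, 0.26 and 0.41 in untreated batches 1, 2 and 3 and at 0.60, -0.11 and -0.35 with H2O2. Batch 1 alone was higher with H2O2 for JUN, and the estimate over the batches was -0.12 ± 0.34.

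Of the thiol antioxidant and glutathione genes, more were lower than higher with H2O2. None of the 14 with a row was higher at an unadjusted p under 0.05 and 4 (28.6%) were lower, against 9.28% and 7.25% of all chromosome 1 rows, with a median of -0.197 and batch medians of -0.234, -0.171 and -0.119. TXNIP, the inhibitor of thioredoxin, had the largest difference: it lay at 0.28, 0.62 and 0.47 in untreated batches 1, 2 and 3 and at -0.69, -0.32 and -1.21 with H2O2. TXNIP was lower in every pair, with a difference of -1.20 ± 0.46 (SE, n = 3, limma unadjusted p = 0.0171). PARK7, a redox-sensitive protein that protects against oxidative stress, differed by -0.37 ± 0.12, with untreated values of 0.25, 0.22 and 0.089 and H2O2 values of -0.20, -0.23 and -0.12 in batches 1, 2 and 3. GSTM3 and MGST3, both glutathione transferases, differed by -0.35 and -0.34. The peroxiredoxins PRDX1 and PRDX6, which reduce H2O2 itself, stood at 0.025 ± 0.22 and 0.11 ± 0.12, and GCLM, the modifier subunit of the enzyme of glutathione synthesis and a target of NRF2, at -0.22 ± 0.16. None of these 3 passed. Without batch 2, and likewise without batch 3, 0 of the 14 were higher and 2 lower.

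Genes of translation, respiration and lipid synthesis gave small values. Over all chromosome 1 rows 9.28% were higher and 7.25% lower at an unadjusted p under 0.05 by limma, and 552 of 1131 were below 0. All 8 aminoacyl-tRNA synthetase and serine synthesis genes were below 0, with a median of -0.250 and batch medians of -0.274, -0.265 and -0.197, but only IARS2, the mitochondrial isoleucyl-tRNA synthetase, passed, at -0.32. In the cholesterol list 7 of 8 genes were below 0 and 2 passed, LBR, a sterol reductase of the inner nuclear membrane, at -0.46, and PMVK, phosphomevalonate kinase, at -0.46. Of the 5 cytosolic ribosomal proteins none passed, and of 9 mitochondrial ribosomal proteins only MRPL24 did, at -0.41. In the list of respiratory chain subunits and assembly factors, 1 of 10 was higher and 1 lower. COA6, an assembly factor of cytochrome oxidase, was at 0.49. Without batch 2 the synthetase, mitochondrial ribosomal and cholesterol lists each held 0 genes that passed, and the respiratory list 0 higher and 1 lower.

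The counts for protein quality control, mitosis and chromatin genes are set here against the 9.28% higher and 7.25% lower of all chromosome 1 rows. In the list of folding, heat shock and endoplasmic reticulum stress genes, 4 of 22 (18.2%) were higher and 1 (4.55%) was lower, with 1 and 0 without batch 2 and 2 and 0 without batch 1. These were SEC22B, a SNARE protein of transport between the endoplasmic reticulum and Golgi, at 0.72, DNAJC6, a cochaperone of clathrin uncoating, at 0.56, DDOST, of the oligosaccharyltransferase, at 0.35, TOR1AIP2, an activator of torsins, at 0.30, and the ubiquitin ligase UBE4B at -0.42. ATF6, a sensor of unfolded proteins, stood at -0.10 and did not pass. In the list of proteasome and ubiquitin genes 3 of 29 (10.3%) were higher, RNF19B at 0.62, UBAP2L at 0.37 and UBE2Q1 at 0.33, and 2 (6.90%) lower, and no proteasome subunit was among them. Without batch 1 the list held 1 higher and 0 lower, and without batch 2, 2 and 1. Of 22 mitosis genes 3 were higher, RCC2 at 0.55, CEP85 at 0.54 and CENPL at 0.44, and 0 lower, with a median of -0.0037, and without batch 2 only 1 was higher. Among 40 chromatin regulators 4 (10%) were higher and 4 (10%) lower, shares near those of all chromosome 1 rows. Leaving out batch 1 gave 0 and 2, and leaving out batch 2 gave 3 and 1. The higher genes were TAF13, of the general factor TFIID, at 0.50, PHF13 at 0.43, YY1AP1 at 0.32 and MIER1 at 0.30. The lower genes were KDM4A, a histone demethylase, at -0.39, TAF12 at -0.35, CHD1L and SMYD3, a methyltransferase whose pairs differed by -1.61, -0.23 and 0.021.

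Of the remaining lists, none of 3 host genes of small nucleolar RNAs and none of 4 interferon-stimulated genes passed, and 1 of 2 histone genes did, HIST2H2AC at -0.73. Over all chromosome 1 rows 9.28% were higher and 7.25% lower. Which rows the table holds was compared with the labelled cell type, where 50.7% of 2061 protein-coding genes of chromosome 1 had a row. The presence of a row does not identify the cell type. Of 18 nuclear and cytoskeletal genes of embryonic kidney cells 12 had a row, NES, LMNA and STMN1 among them, with 1 higher, VANGL2, a planar polarity protein, at 0.81, and 1 lower, LAMC1 at -0.32. Of 14 blood cell markers only CD58 and RUNX3 had a row, at 0.18 and 0.45, and neither passed. PTPRC, the defining marker of white blood cells, had none. The table holds no absolute level, and a gene without a row may have been below the FPKM cut-off of 10.

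Genes with a long genomic span were more often lower with H2O2. The 1045 protein-coding rows of chromosome 1 were ranked by the span from annotated start to end and divided into 5 groups of 209. The group of longest span (84.7 to 1225 kb) held 36 genes that were lower (17.2%) and 5 that were higher (2.39%) at an unadjusted p under 0.05. Over all chromosome 1 rows 7.25% were lower and 9.28% higher. These counts are a description and were not tested. In the group of shortest span (0.494 to 11.5 kb), 8 were lower (3.83%) and 24 higher (11.5%). The median difference was -0.145 in the longest group, with batch medians of -0.106, -0.137 and -0.102, and 0.0575 in the shortest. Of the named genes, RABGAP1L, ROR1, ST6GALNAC3, SIPA1L2, CDC42BPA, PIGK and PTPRF are in the longest group. The median span was 81.9 kb over the 73 genes that were lower, 28.2 kb over the 102 that were higher and 34.5 kb over all 1045. Spearman's rho between span and difference was -0.236 across the 1045 genes, which share libraries and are not independent replicates. Without batch 2 the longest group held 17 lower and 2 higher genes, and without batch 1 it held 20 and 4. The same group had medians of -0.090 in untransfected, -0.116 in EVI1-WT and -0.059 in EVI1-AQA cells, each with its own untreated and H2O2 samples. The length of the messenger RNA was not examined.

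**Figure D3:**
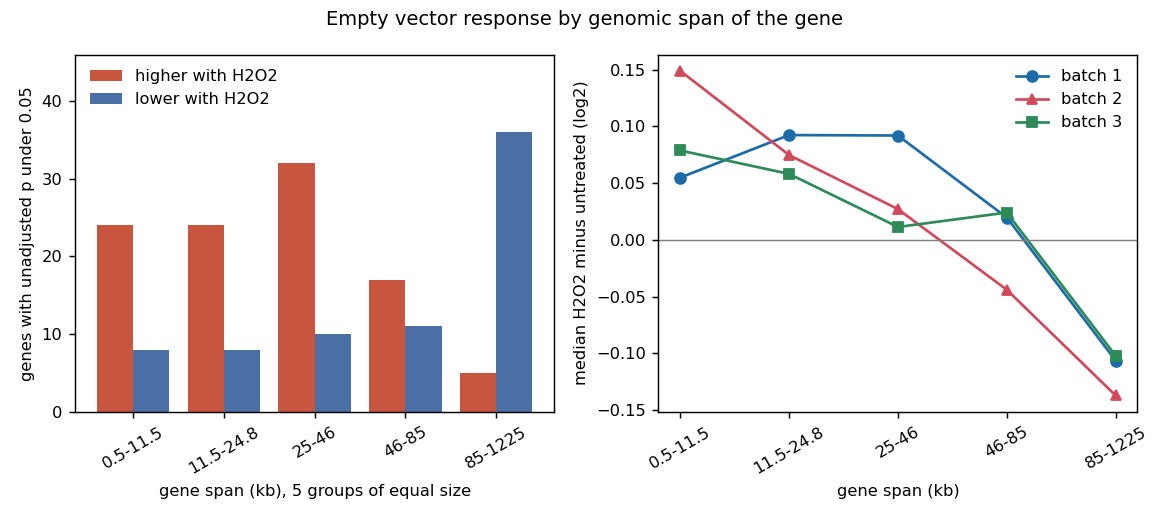
Left, number of chromosome 1 protein-coding genes higher or lower with H2O2 (empty vector, unadjusted p under 0.05) (y axis) in 5 groups of 209 genes ordered by genomic span (x axis, kb). Right, the median difference (y axis, log2) of the same groups in each batch, which is below 0 in all 3 batches for the longest group alone.

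Promoter sequences were searched for short motifs. The 250 bases before the annotated start, from RefSeq on GRCh38.p14, were available for 911 of the chromosome 1 rows, among them 88 of those higher and 66 of those lower at an unadjusted p under 0.05. They were searched on both strands for 6 motifs chosen with the values known. The cyclic AMP response element TGACGTCA, bound by CREB and ATF factors, was present in 7 of the 88 (7.95%), which are DTL, EPHA2, EXO1, MAGOH, SLC25A33, SNRNP40 and THAP3, in 1 of the 66 (1.52%), in 22 of the 911 (2.41%) and in 1.65% of all 35116 promoters of that length. The ETS core CCGGAAG was present in 20.5% of the 88, 7.58% of the 66 and 15.7% of the 911 and 8.52% of all promoters. The AP-1 motif TGANTCA was present in 9.09% of the 88, 4.55% of the 66 and 4.17% of the 911 and 6.57% of all promoters, and the core of the antioxidant response element, TGACNNNGC, in 11.4%, 9.09%, 10.4% and 10.9%. The E-box CACGTG was present in 12.5%, 9.09%, 9.66% and 6.34%, and CCAAT in 37.5%, 36.4%, 36.4% and 32.0%. All 6 motifs had a larger share among the 88 than among all promoters, but that set is not limited to genes with a row. The 911 also exceeded all promoters for the cyclic AMP response element, the ETS core, the E-box and CCAAT. For the antioxidant core and CCAAT the share of the 88 was close to that of the 911. These are matches of letters, they were not tested, and they do not show that a factor was bound.

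The promoters of 4 of the higher genes are printed below from 5′ to 3′ on the strand of the gene, to show the cyclic AMP response element in its setting, and, for KTI12, because it had the lowest p. Capitals mark TGACGTCA in SNRNP40, EPHA2 and MAGOH, and CTTCCGG, the ETS core read on the opposite strand, in KTI12 and MAGOH. They lie on the minus strand of chromosome 1, at chr1:52033811-52034060 for KTI12, chr1:31296789-31297038 for SNRNP40, chr1:16156070-16156319 for EPHA2 and chr1:53238519-53238768 for MAGOH.
KTI12: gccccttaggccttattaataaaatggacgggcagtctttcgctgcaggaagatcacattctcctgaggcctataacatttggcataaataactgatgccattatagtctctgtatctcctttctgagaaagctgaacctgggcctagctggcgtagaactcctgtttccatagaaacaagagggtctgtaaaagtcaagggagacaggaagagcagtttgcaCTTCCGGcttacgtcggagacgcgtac
SNRNP40: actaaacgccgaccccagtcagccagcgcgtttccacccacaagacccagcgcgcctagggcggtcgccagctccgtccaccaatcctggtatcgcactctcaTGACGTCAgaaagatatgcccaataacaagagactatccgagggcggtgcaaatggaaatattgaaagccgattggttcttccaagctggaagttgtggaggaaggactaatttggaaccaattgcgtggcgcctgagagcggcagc
EPHA2: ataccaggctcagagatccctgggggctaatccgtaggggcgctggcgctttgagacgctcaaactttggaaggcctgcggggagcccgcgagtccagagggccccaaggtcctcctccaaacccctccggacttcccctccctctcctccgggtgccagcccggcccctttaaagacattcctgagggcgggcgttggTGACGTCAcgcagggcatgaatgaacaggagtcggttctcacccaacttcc
MAGOH: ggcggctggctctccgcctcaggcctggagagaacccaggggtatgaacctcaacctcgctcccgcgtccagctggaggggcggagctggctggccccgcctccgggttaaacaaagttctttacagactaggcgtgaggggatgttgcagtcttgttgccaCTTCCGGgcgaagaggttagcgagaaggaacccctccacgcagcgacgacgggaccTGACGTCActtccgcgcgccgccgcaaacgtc
The element begins 147 bases before the start in SNRNP40, 51 in EPHA2 and 32 in MAGOH, and the ETS core begins 27 bases before the start in KTI12 and 88 in MAGOH. The rows of these genes differed by 0.75, 0.59, 1.26 and 0.48 in the order printed. The promoters of DDX20, UHMK1 and RABGAP1L, the other chromosome 1 genes called at the adjusted threshold, held neither the cyclic AMP response element nor the ETS core.

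Untransfected cells offered a comparison that shares no sample with the empty vector cells. In them 98 chromosome 1 rows (8.66%) were higher and 70 (6.19%) lower with H2O2 at an unadjusted p under 0.05, with 0 called at the adjusted threshold by limma on chromosome 1 and 1 (0.00864%) of all rows. Of the 98, the empty vector difference was above 0 in 88, 78 and 81 in batches 1, 2 and 3, against 53.3%, 49.9% and 52.2% of all chromosome 1 rows, and its median was 0.445, 0.376 and 0.192. Of the 70, it was below 0 in 62, 50 and 54, against 46.7%, 50.1% and 47.8%, with medians of -0.511, -0.255 and -0.212. Over the batches, 43 of the 98 passed the unadjusted threshold as higher, and 24 of the 70 as lower, with the empty vector too. An H2O2 sample of another transfection state could share this direction, so these counts do not bear on the label of the batch 2 sample. All 24 named genes had the same sign in untransfected and in EVI1-WT cells. RABGGTB was higher by 1.15 in untransfected and 1.16 in EVI1-WT cells, HES5 stood at -1.17 and -1.65, and DDX20 at 0.59 and 0.84. The batch 2 H2O2 samples of empty vector and EVI1-WT cells both stood apart in the row labelled CACNB3, at 4.36 and -4.38. If their labels were exchanged, each of these responses would hold a sample of the other, which limits the comparison with EVI1-WT cells. An exchange was not tested.

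The difference between the responses of empty vector and untransfected cells was tested as an interaction. None of 11579 rows passed the adjusted threshold in limma, and 367 (3.17%) had an unadjusted p under 0.05. On chromosome 1 these were 31 of the 1131 rows (2.74%). Both shares are below the one that a threshold of 0.05 passes on average among unchanged rows. CASP9 had the lowest p of the 31 on chromosome 1, with 0.87 in empty vector and -0.33 in untransfected cells. The difference between its responses was 1.20 ± 0.32 (SE, limma unadjusted p = 0.00125). FBXO2, a ubiquitin ligase adaptor for glycoproteins, was at 0.38 and -0.79, and ZBTB40, a zinc finger protein, at 0.39 and -0.38. In the other direction TESK2, a kinase of cofilin, was at -0.13 and 0.90, KAZN, a protein of cell junctions, at -0.40 and 0.34, and ABL2, a non-receptor tyrosine kinase, at -0.22 and 0.27. The adjusted p of each of these 6 was 1.00 after rounding. Against the response of EVI1-WT cells 298 rows (2.57%), and against that of EVI1-AQA cells 1315 rows (11.4%), had an unadjusted p under 0.05 in limma, again with 0 at the adjusted threshold. For KTI12 the difference between the responses was 0.26 ± 0.21 and for RABGAP1L -0.40 ± 0.23, both within 2 SE of 0. The count against EVI1-WT rests in part on the batch 2 H2O2 samples of both groups, which stood apart in the row labelled CACNB3.

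The responses of the 3 batches were related but far from identical. The SD of the difference over all rows was 0.450, 0.481 and 0.362 in batches 1, 2 and 3. Among the named genes, KTI12, UHMK1, RRAGC and BSDC1 had their smallest difference in batch 3, whereas DDX20, TOR3A, DEGS1 and RABGAP1L had their largest there. Across the 1131 chromosome 1 rows Pearson's r was 0.382 between batches 1 and 2, 0.309 between 1 and 3 and 0.287 between 2 and 3. These are given as a description, since rows share libraries. Without batch 2, 69 rows of chromosome 1 were higher and 42 lower at an unadjusted p under 0.05 (105 and 82 with it). Without batch 1 there were 71 and 51, and without batch 3 there were 95 and 73.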

How the data were processed

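RNA was prepared with the QuantSeq 3′ kit (200 ng input, 14 cycles) and sequenced as 75-base reads. According to the methods, the authors used the Ensembl 90 annotation of GRCh38 and, in Qlucore Omics Explorer 3.3, removed transcripts under 10 FPKM; the aligner, and whether strand was used in counting, are not given in the sources used here. The table that the authors deposited holds normalized log2 values, centred within batches; depth is unknown, and 3 samples per group limit the precision. Samples were grouped by their labels.

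Group means were fitted with limma 3.58.1 (R 4.3.3) to all 24 samples with the batch as a block, since the labels give the batch and the centring had already used its degrees of freedom (14 residual, 5.04 prior). Tests were two-sided, with Benjamini-Hochberg adjustment over all 11579 rows. The fit was tested on simulated data. GENCODE v44 placed 10892 identifiers (94.1%). Named genes were members of the lists on chromosome 1, the 12 protein-coding rows of lowest p in each direction that moved 1 way in all batches, and, for the interactions, 3 in each direction. The members and lists were chosen with earlier results of these data known. The transfected gene and several stress and housekeeping genes beyond chromosome 1 were not analysed here, and the results of a few genes set by these rules are not reported here. Python 3.11.15, pandas 2.3.3 and matplotlib 3.10.9 were used. Alternatives were no block, other scalings, fewer samples or rows.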

Additional observations from a re-analysis of the deposited data

How the results depend on the processing

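The pairing comes from the batch in the labels. Without the replicate block, 137 rows rose and 95 fell at the adjusted threshold (26 and 15 with it), and on chromosome 1 22 and 8 (3 and 1 with it); that fit counts 2 degrees of freedom that the centring had already used. Quantile normalization gave 153 and 99, and 20 and 9 on chromosome 1. With only the 6 samples compared, and without the 3 departing H2O2 samples, all of these counts were 0, with 1022 and 644 rows higher and 902 and 563 lower at an unadjusted p under 0.05. Without the 25% of rows of lowest SD, 15 rose, and on chromosome 1, 1 rose and 0 fell. Leaving out 1 batch gave 0 to 6 risen and 0 to 5 fallen rows, 0 to 1 and 0 to 1 on chromosome 1, and at an unadjusted p under 0.05, 523 to 821 higher and 450 to 673 lower rows, 69 to 95 and 42 to 73 on chromosome 1; the adjusted counts were 0 without batch 1 and without batch 2. The interaction with untransfected cells kept 0 adjusted calls under all 9 alternatives, and its unadjusted count ran from 274 to 582 when 1 batch was left out (367 with all), the highest without batch 1.

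Of 216 values of the 24 named genes under the 9 alternatives, none reversed, 158 stayed on their side of the adjusted threshold, 34 newly passed it and 24 no longer did. The 24 genes were chosen with 1 sign in all batches, so leaving out a batch could not reverse them. For the gene lists with 3 or more rows and the group of longest span, 143 of 162 medians moved by less than the spread between batches. The median changed sign for the immediate early list without batch 2 (0.113) and without batch 3 (0.203), for the cytosolic ribosomal (0.0195), proteasome (-0.0039), folding (-0.032) and kidney (-0.0048) lists without batch 1, for mitosis without batch 2 (0.0123), and for the respiratory list, at 0.0023, in 6 alternatives. Without the 25% of rows of lowest SD the immediate early median was 0.0523, and it was 0.103 without the 3 departing samples. The same row filter gave a cytosolic ribosomal median of 0.595. That equals the highest value of the 5 genes, so it is the value of the only 1 that remained. The causes were not tested. Depth is unknown, and its effect on low transcripts could not be examined.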

Other observations

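The annotation calls 86 rows of chromosome 1 other than protein-coding. Of these 3 were higher and 9 lower with H2O2 (empty vector, unadjusted p under 0.05), where 9.28% and 7.25% of all chromosome 1 rows were. Of the 36 pseudogenes among them 0 were higher and 7 lower. Pseudogenes share reads with near-identical copies, how the authors' counting assigned such reads is not given in the sources used here, and these rows are uncertain.

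The response of EVI1-AQA cells differed more from that of empty vector cells than did the others. The interaction had an unadjusted p under 0.05 in 1315 rows (11.4%) for EVI1-AQA, against 298 (2.57%) for EVI1-WT and 367 (3.17%) for untransfected cells, with 0 adjusted calls by limma in each and a smallest adjusted p of 0.0999 for EVI1-AQA. Without the 3 departing H2O2 samples these counts were 1254, 270 and 340, with 2 adjusted calls for EVI1-AQA and 0 for the others. Of the 12 named genes that were higher in empty vector cells, 5 were above 0 in EVI1-AQA cells and 12 in EVI1-WT cells, and of the 12 lower genes 9 and 12 were below 0. The 24 genes were chosen by their empty vector values, so these counts have no test. SNRNP40 was at 0.59 in empty vector and -0.32 in EVI1-AQA cells, and ADGRB2, an adhesion receptor, at -0.14 and -1.50. In the other direction C1orf50 was at -0.24 and 0.84, GLRX2, a mitochondrial glutaredoxin, at -0.17 and 0.60, and TMEM222 at 0.18 and 0.96. The interaction adjusted p-values of these 5 lay between 0.119 and 0.23. The H2O2 sample of EVI1-AQA in batch 1 is 1 of the samples that stand apart in the row labelled CACNB3, and its part in these values was not tested beyond leaving it out.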
